A study of Mus musculus with 3 samples.

Results

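The Skint genes (selection and upkeep of intraepithelial T cells) are a family of mouse genes for membrane proteins with immunoglobulin-like domains, related to the butyrophilins. The founding member, Skint1, is required in mice for the selection in the thymus of the gamma delta T cells that later populate the epidermis as dendritic epidermal T cells. In adult skin these T cells lie among keratinocytes, the epithelial cells that are born in the basal layer and mature as they pass through the spinous and granular layers. The human genome carries only a pseudogene of the family. The members described here are the genes named Skint1 to Skint7 and Skint9 to Skint11, taken by their symbols, and all 10 were found among the 31053 genes of the deposited tables. All 10 also passed the filter on low counts that precedes the tests.

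The study profiled single epidermal cells from the ear skin of untreated C57BL/6N mice, an inbred strain, at 9 weeks of age. The samples form 1 group of 3 replicate libraries, made with a droplet kit that reads the 5′ ends of transcripts. The epidermis was lifted off with dispase, single cells were taken off its basal side with trypsin/EDTA and they were stored frozen, so that the shares of layers describe this suspension and not the intact tissue. Nothing states that the replicates came from separate animals, and p-values then measure only the spread between these libraries, which may be technical.

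Transcripts were counted as UMIs (unique molecular identifiers, each standing for 1 captured transcript end). A total of 5340 cells passed the filters on genes and mitochondrial UMIs, 944, 2212 and 2184 per library, with medians of 14569.5, 9237.5 and 11282 UMIs. Cells were sorted into layers by the share of their UMIs that came from a few keratinocyte genes. Basal cells (2387) had at least 0.5% from Krt5 and Krt14 and less than that from Krt1 and Krt10, and transitional cells (196) had at least 0.5% from each pair. Spinous cells had this share from Krt1 and Krt10 only, and were called lower (1576) or upper (525) at 0.1% from F3, Mboat2, Dsc1 and Kctd12. Granular cells (425) had at least 1% from Lor, which codes for loricrin of the cornified envelope. Levels are given in CPM, the UMIs of a gene per 1000000 UMIs of a group of cells in a library, which counts transcript ends and is not divided by transcript length. Of the markers that the sorting did not use, the summed basal and granular lists followed the names and the summed spinous list did not. Single genes differed from the sums: Ivl, listed as granular, averaged 254 CPM in upper spinous and 174 in granular cells, with overlapping values. The summed level of Itga6, Itgb4, Col17a1 and Krt15 was 61.4 ± 8.1 CPM in granular cells and 2793 ± 158 in basal cells, and that of Flg, Flg2, Ivl and Cdsn was 11690 ± 1045 in granular cells and 16 ± 7.0 in basal cells (SD, n = 3 libraries). That of Krtdap, Sbsn, Dsg1a and Dkkl1, listed as spinous, was 1214 in basal, 7773 in transitional and 16680 in lower spinous cells. It was 25990 in upper spinous and 40090 in granular cells. By gene, Krtdap and Sbsn were highest in granular cells. Dsg1a (1519 in upper spinous, 456 in granular cells) and Dkkl1 (761 and 576) were highest in upper spinous cells. The spinous groups are named by the genes used for sorting. The transitional group was the thinnest, with 31 to 97 cells per library, and replicate 1 gave the 31. Of its 196 cells, 8 were marked as possible doublets, against 30 of all cells, and leaving out all marked cells changed no member's call. Across the libraries, 16 pairs of cell barcodes were shared.

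All members lie in 1 cluster on chromosome 4, from 111972923 to 114245028 in build GRCm38, where the GENCODE M21 annotation places no other protein-coding gene. The cluster spans 2.27 Mb, with 6 members on the plus strand and 4 on the minus strand. From its start the order is Skint7, Skint1, Skint4, Skint3, Skint9, Skint2, Skint10, Skint6, Skint5 and Skint11. Skint5 (chr4:113477891-113999503) and Skint6 (chr4:112804616-113286973) are the long members, spanning 521.6 and 482.4 kb with up to 59 and 49 exons, and their coding sequences are 88.4% identical over 3720 aligned bases. Skint9 (chr4:112385969-112433985) and Skint10 (chr4:112711147-112774866) are 86.1% identical in coding sequence, and over all 45 pairs identity ran from 58.5% to 88.4% with a median of 62.4%. Little of the 5′ sequence was shared: none of the 100-base stretches in the first 500 bases of member transcripts was found in another gene, except for 14.39% of those of Skint7, which it shares with Skint8, a related gene that is not among the members. For Gm12823, an antisense RNA whose exons overlap those of Skint6, 0 UMIs were counted in each layer. This count cannot tell a gene without transcripts from one that is missing in the deposited tables.

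The sequence just before the members' start sites holds runs that groups of members share. Shown first are 70-base stretches before the RefSeq starts of Skint1, Skint3, Skint4, Skint5 and Skint6 (build GRCm38.p6, 5′ to 3′ on the strand of the gene), in which the capitals mark a run of 14 bases that all 5 share and that no other of the 32851 RefSeq promoter windows of 250 bases holds. Skint1, Skint3 and Skint4 lie on the plus strand, at chr4:112006019-112006088, chr4:112232122-112232191 and chr4:112081400-112081469, the last before 1 of its 2 RefSeq starts. Skint5 and Skint6 lie on the minus strand, at chr4:113999682-113999751 and chr4:113287152-113287221.
Skint1: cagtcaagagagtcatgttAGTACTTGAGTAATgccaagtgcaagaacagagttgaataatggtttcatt
Skint3: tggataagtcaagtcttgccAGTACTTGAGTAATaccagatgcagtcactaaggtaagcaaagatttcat
Skint4: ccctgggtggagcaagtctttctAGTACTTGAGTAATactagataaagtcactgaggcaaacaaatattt
Skint5: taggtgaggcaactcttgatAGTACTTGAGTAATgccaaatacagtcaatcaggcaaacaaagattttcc
Skint6: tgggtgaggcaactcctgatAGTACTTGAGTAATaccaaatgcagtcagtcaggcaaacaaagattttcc

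The run begins 231, 103, 47, 228 and 228 bases before the start of Skint1, Skint3, Skint4, Skint5 and Skint6. Skint9, Skint10 and Skint11 share another run, of 13 bases, which is again found in no other promoter window and is shown in capitals in the same way. The stretches lie at chr4:112434135-112434204 and chr4:112774925-112774994 on the minus strand and at chr4:114163302-114163371 on the plus strand.
Skint9: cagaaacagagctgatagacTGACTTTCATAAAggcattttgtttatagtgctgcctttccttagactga
Skint10: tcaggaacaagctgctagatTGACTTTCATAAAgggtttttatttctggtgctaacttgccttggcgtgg
Skint11: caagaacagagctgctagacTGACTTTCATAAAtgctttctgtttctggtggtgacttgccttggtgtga

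Both runs were picked after the sequences had been compared, and a shared run describes these letters only. Of the motifs searched on both strands of the 250 bases, TATAAA (the TATA box) was found in the windows of 6 of 10 members (Skint1, Skint2, Skint4, Skint7, Skint9 and Skint11), against 14.327% of 27025 genes. TGANTCA (AP-1) was found for Skint11 only, against 7.819% of genes, TTNNGCAA (C/EBP) for Skint2 and Skint11, against 10.842%, and CACCC (KLF) for 4 members, against 54.535%. AACCNGTT (GRHL) and AGGTCA (a site of nuclear receptors) were found for no member, against 1.998% and 15.763% of genes.

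**Figure D1:**
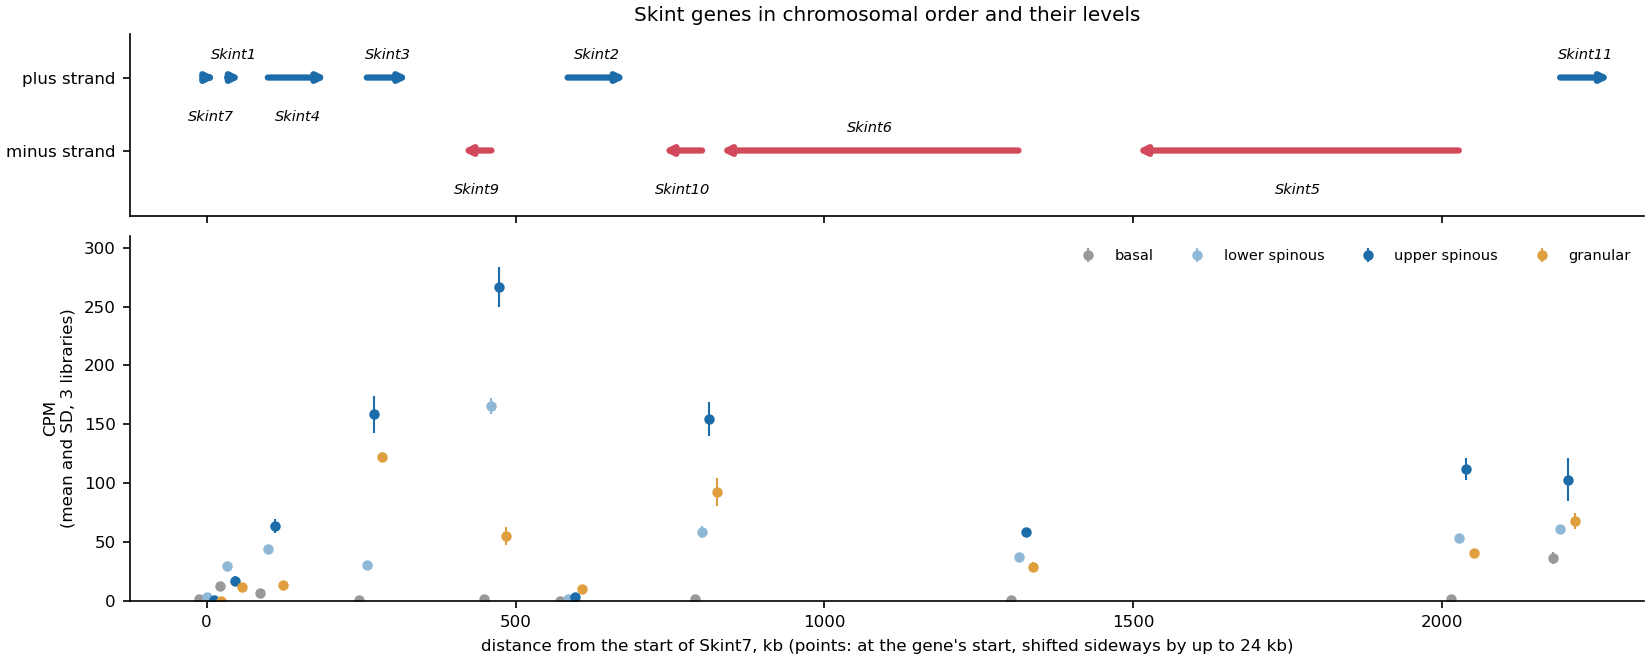
Upper panel: the 10 Skint genes by distance along the cluster in kb, as arrows on their strand. Lower panel: each gene's level in CPM (mean and SD of 3 libraries) in basal, lower spinous, upper spinous and granular cells, drawn at its start, with Skint9 highest in upper spinous cells at 267 and Skint7 and Skint2 under 10 in each layer drawn.

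Summed over the family, Skint transcripts were scarcest in basal cells, most abundant in upper spinous cells and lower again, as a share of all UMIs, in granular cells. The sum was 63.2 ± 6.7 CPM in basal cells, 230.3 ± 56.4 in transitional, 485 ± 13 in lower spinous, 938 ± 22 in upper spinous and 443 ± 13 in granular cells (SD, n = 3 libraries). The ranges of neighbouring layers did not overlap in any step, and upper spinous cells were highest in each library. Counted per cell, the sum was 0.596 UMIs in basal, 2.79 in transitional, 7.65 in lower spinous, 18.5 in upper spinous and 9.83 in granular cells. Fold changes come from edgeR's quasi-likelihood test with TMM scaling, in which a gene was called at a Benjamini-Hochberg adjusted p of 0.05. Shares and medians of all genes are over 10937 genes tested, without the genes that define the layers. The scaling matters for granular cells, as described with that step.

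The members did not share 1 pattern. The 7 genes Skint3, Skint4, Skint5, Skint6, Skint9, Skint10 and Skint11 were highest in upper spinous cells in each library, Skint2 was highest in granular cells in each library, and Skint1 and Skint7 were highest in transitional or lower spinous cells. The make-up of the family therefore shifted with depth in the epidermis. Skint11 supplied 57.4% of the family's UMIs in basal cells, 12.6% in lower spinous, 11% in upper spinous and 15.4% in granular cells. Skint9 supplied 2.05% in basal, 34.1% in lower spinous, 28.4% in upper spinous and 12.5% in granular cells, and Skint3 supplied 0.992%, 6.31%, 16.9% and 27.6% in the same layers.

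**Figure D2:**
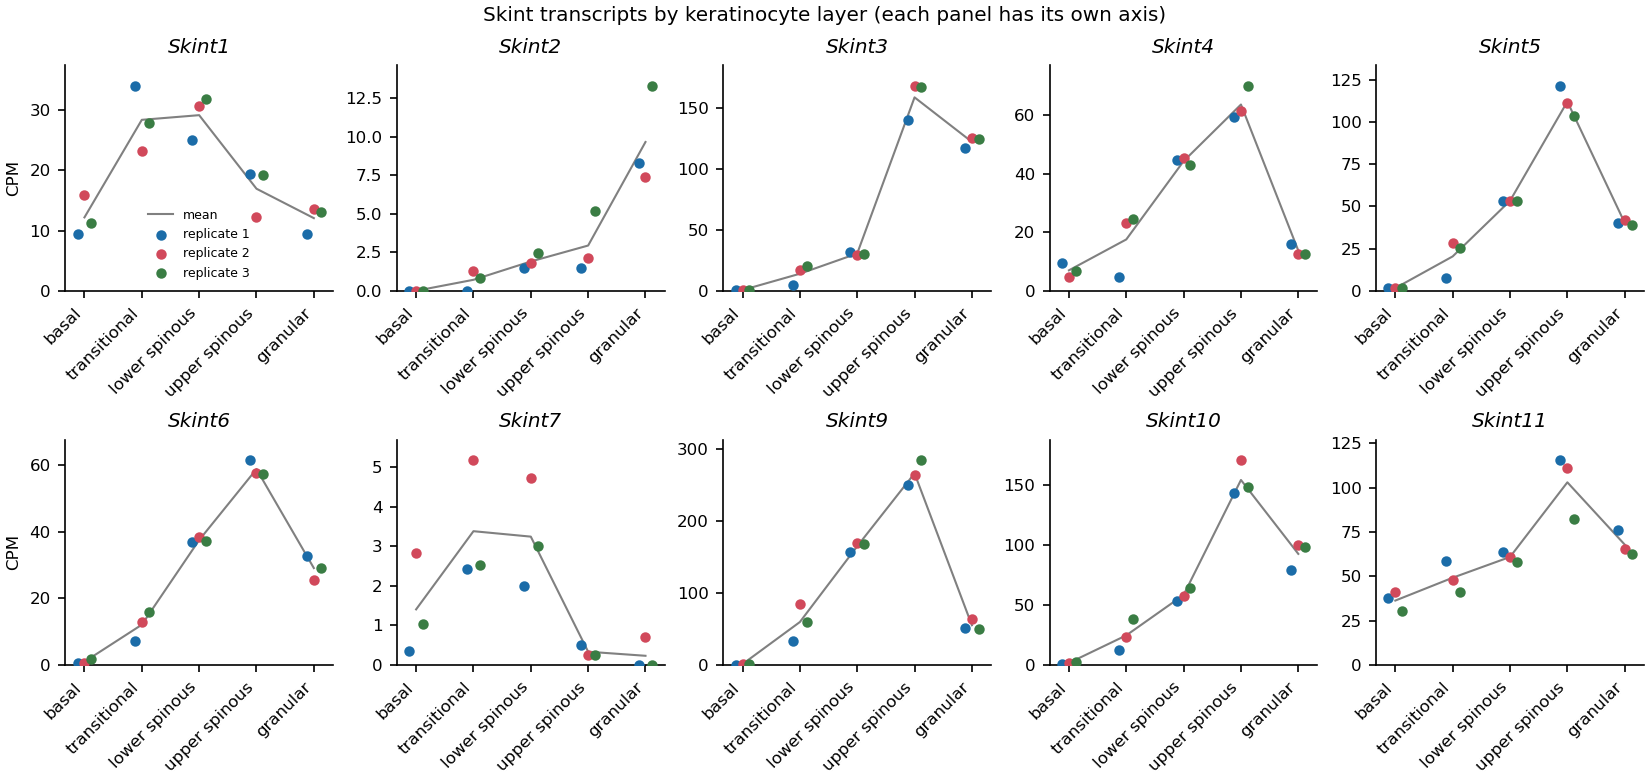
Level of each Skint gene in CPM (vertical axis, starting at 0 and set for each panel) in the 5 layers. Points are the 3 libraries and the line joins their means. Skint3, Skint4, Skint5, Skint6, Skint9, Skint10 and Skint11 peak in upper spinous cells, Skint2 in granular cells, and Skint1 and Skint7 earlier.

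Skint9 and Skint3, which in mice have been linked to contact between wound-edge keratinocytes and dendritic epidermal T cells, had the highest means in upper spinous cells, where the values of Skint3 overlapped those of Skint10. Skint9 had 0.698, 1.415 and 1.73 CPM in basal cells of replicates 1 to 3, 34.1, 85.5 and 59.9 in transitional, 157, 170.0 and 168 in lower spinous, 251.0, 264 and 285 in upper spinous, and 51.7, 64.1 and 50.3 in granular cells. Its ranges did not overlap between any neighbouring layers, and its transitional values were the most spread, with replicate 1 lowest. Skint3 had 0.349, 0.566 and 0.924 CPM in basal cells, 4.87, 16.8 and 20.2 in transitional, 31.8, 29.4 and 30.5 in lower spinous, 140.4, 168 and 167 in upper spinous, and 117, 125 and 124 in granular cells. It gained most of its level between the lower and the upper spinous groups, where Skint9 was already high.

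Skint10 and Skint11 share an upstream run with Skint9 but differed from it and from each other in where transcripts appeared. Skint10 had 1.22, 1.84 and 2.195 CPM in basal cells, 12.2, 23.3 and 38.8 in transitional, 53.6, 57.7 and 64.2 in lower spinous, 144, 171 and 148 in upper spinous, and 79.0, 100.5 and 98.8 in granular cells. Skint11 had 37.5, 41.0 and 30.5 CPM in basal cells, 58.4, 47.9 and 41.3 in transitional, 63.8, 60.9 and 58.1 in lower spinous, 116, 111 and 82.5 in upper spinous, and 76.0, 65.2 and 62.6 in granular cells. Skint11 had the highest level of all members in basal cells, in each library.

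The long members Skint5 and Skint6, 88.8% identical over the 250 bases before their starts, had similar courses. Skint5 had 1.57, 1.70 and 1.5 CPM in basal cells, 7.30, 28.5 and 25.3 in transitional, 53.1, 53.5 and 53.4 in lower spinous, 121.5, 111 and 103.5 in upper spinous, and 40.4, 41.7 and 38.7 in granular cells. Skint6 ran from 0.524 to 1.73 in basal, 7.30 to 16 in transitional, 36.9 to 38.5 in lower spinous, 57.2 to 61.5 in upper spinous and 25.6 to 32.6 in granular cells. Over the 15 profiles of library and layer the log2 levels of the pair had a Pearson r of 0.986, and Skint3 with Skint10 had 0.982. These correlations describe profiles that share libraries and depth. Skint4 ran from 4.67 to 9.60 CPM in basal, 4.87 to 24.5 in transitional, 43.0 to 45.3 in lower spinous, 59.5 to 70.1 in upper spinous and 12.6 to 16 in granular cells, where each value was above each basal value and below each lower spinous value.

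Skint1, the gene needed for T cell selection in the thymus, supplied 19.2% of the family's UMIs in basal, 13.4% in transitional, 6.01% in lower spinous, 1.82% in upper spinous and 2.72% in granular cells. It had 9.42, 15.8 and 11.3 CPM in basal cells, 34.1, 23.3 and 27.8 in transitional, 25.1, 30.6 and 31.8 in lower spinous, 19.4, 12.2 and 19.3 in upper spinous, and 9.50, 13.7 and 13.1 in granular cells. Transitional and lower spinous values overlapped, and so did upper spinous and granular values. Skint2, which has been studied in mice as a B7-related inhibitor of T cells, had 0 UMIs in basal cells of each library, 2 in all transitional cells and 46 in lower spinous cells. It then had 1.49, 2.12 and 5.2 CPM in upper spinous and 8.31, 7.36 and 13.3 in granular cells, and granular values lay above upper spinous values in each library. Skint7 had the fewest UMIs over the 5 layers together, with 31 UMIs in basal, 8 in transitional, 80 in lower spinous, 3 in upper spinous and 2 in granular cells. Its lower spinous range of 2.00 to 4.73 CPM lay above its upper spinous range of 0.248 to 0.496. Skint8, with which Skint7 shares 5′ sequence, averaged 2.89 ± 0.51 CPM in upper spinous cells and 1.30 ± 0.35 in lower spinous cells (SD, n = 3 libraries).

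The step from basal to transitional cells asked which members appear as Krt1 and Krt10 come on. Skint9, Skint10, Skint5, Skint3 and Skint6 rose steeply, and Skint4 and Skint1 rose less. Of these, Skint10, Skint6, Skint4 and Skint1 were not called once each cell was thinned to 2000 UMIs. By edgeR, 8 of 10 members were called higher in transitional than in basal cells and 0 were called lower, where 12.3% of all genes tested were called higher and 12.3% lower. The median log2 fold change was 3.73 over the members, with Skint2 included, and −0.04 over all genes. Skint9 averaged 59.8 ± 25.7 CPM in transitional cells and 1.28 ± 0.53 in basal cells (SD, n = 3), a log2 fold change of 5.51 ± 0.28 (SE, adjusted p = 6.37e-13, edgeR). Skint3, Skint10, Skint5 and Skint6 rose by 4.56 ± 0.42, 3.94 ± 0.32, 3.84 ± 0.33 and 3.61 ± 0.42 on the log2 scale (SE). In replicate 1 the transitional values of these genes rest on only 2, 5, 3 and 3 UMIs. Skint4 rose by 1.59 ± 0.33 (adjusted p = 0.000887, edgeR), although its library values overlapped between the layers. Skint1 rose by 1.14 ± 0.27 (adjusted p = 0.0029, edgeR), with each transitional value above each basal value. Skint11 had a log2 value of 0.41 ± 0.16 (adjusted p = 0.0722, edgeR), with each transitional value above each basal value, and Skint7 had 1.21 ± 0.65 (adjusted p = 0.194, edgeR). Skint2 counts among the 8, but its 2 UMIs in transitional and 0 in basal cells are too few for a fold. Without replicate 3, which gave 97 of the 196 transitional cells, 5 members were called, and Skint1 (adjusted p = 0.0788), Skint4 (0.11) and Skint2 (0.225) were not (edgeR). With all layer thresholds doubled 5 members were called as well, and with thinned cells 3. Doubled thresholds left 10 transitional cells in replicate 1, 22 in replicate 3 and too few in replicate 2 for a profile. With thinned cells Skint10 was at −3.83 ± 2.76 (adjusted p = 0.42), Skint6 at −2.72 ± 3.12 (0.652), Skint4 at 0.40 ± 0.80 (0.822) and Skint1 at 1.32 ± 0.53 (0.0886), each with its SE, by edgeR. Skint10 and Skint6 were seen in 0 of 178 thinned transitional cells and in 12 and 5 of 2239 thinned basal cells. Their values with thinned cells are therefore too poorly supported for a fold or a direction. In the other direction, Skint11 was called with halved thresholds (adjusted p = 0.0114) and at mt- shares up to 5% (0.031), and Skint7 with halved thresholds (1.79, 0.00603), by edgeR. Skint1 was also not called at mt- shares up to 5% (adjusted p = 0.0695, edgeR), and Skint2 without replicate 1 (0.0503) or 2 (0.179).

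Between transitional and lower spinous cells, 7 members rose. They were Skint9 (log2 1.70 ± 0.15), Skint6 (1.78 ± 0.24), Skint5 (1.5 ± 0.20), Skint4 (1.41 ± 0.25), Skint10 (1.36 ± 0.19), Skint3 (1.21 ± 0.23) and Skint11 (0.64 ± 0.15), each with its SE. By edgeR 7 of 10 members were called higher and 0 lower in lower spinous than in transitional cells, against 13.0% and 10.2% of all genes, and the median log2 fold change was 1.38 over the members and 0.02 over all genes. Skint9 averaged 165 ± 7 CPM in lower spinous cells and 59.8 ± 25.7 in transitional cells (SD, n = 3; adjusted p = 1.95e-08, edgeR). For Skint11 the adjusted p was 0.00262, 0.078 without replicate 3 and 0.098 when libraries were scaled to total UMIs (edgeR). Skint3 was not called with thinned cells (adjusted p = 0.146, edgeR). Skint1 (0.42 ± 0.23, adjusted p = 0.226, edgeR) and Skint7 (0.29 ± 0.56, adjusted p = 0.777, edgeR) were not called. For Skint2 the ratio of lower spinous to transitional CPM, pooled over libraries and without TMM scaling, was 2.33. Its exact 95% interval of 0.61 to 19.8 covers counting error only. With halved layer thresholds Skint1 (0.59 ± 0.20, adjusted p = 0.0307) and Skint2 (2.5 ± 0.74, adjusted p = 0.0132) were called higher by edgeR.

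At the step within the spinous layer the family split. Skint3 rose most, followed by Skint10 and Skint5, while Skint1 and Skint7 fell. By edgeR 7 of 10 members were called higher and 2 lower in upper than in lower spinous cells, against 29.5% and 30.7% of all genes, so that 60.2% of genes were called in this comparison. The median log2 fold change was 0.86 over the members and −0.06 over all genes. Skint3 averaged 159 ± 16 CPM in upper spinous cells and 30.6 ± 1.2 in lower spinous cells (SD, n = 3), a log2 fold change of 2.58 ± 0.11 (SE, adjusted p = 4.66e-15, edgeR). Skint10 rose by 1.59 ± 0.10, Skint5 by 1.25 ± 0.11, Skint11 by 0.93 ± 0.10, Skint9 by 0.88 ± 0.10, Skint6 by 0.83 ± 0.12 and Skint4 by 0.72 ± 0.13 on the log2 scale (SE). For each of these 7 members every upper spinous value lay above every lower spinous value. Skint1 averaged 17.0 ± 4.1 CPM in upper spinous cells and 29.2 ± 3.6 in lower spinous cells (SD, n = 3), and fell by 0.65 on the log2 scale (SE 0.17, adjusted p = 0.00254, edgeR). Without replicate 2 the value was −0.39 (adjusted p = 0.0638, edgeR), and with doubled layer thresholds the value was −0.25 (adjusted p = 0.284, edgeR). Skint7 was 11.2-fold lower in upper spinous cells by CPM pooled over libraries, without TMM scaling (exact 95% interval 3.7 to 55.5, from 3 against 80 UMIs). By edgeR with TMM scaling its log2 value was −3.24 ± 0.63 (SE, adjusted p = 0.000112). Skint2 was not called (0.84 ± 0.37, adjusted p = 0.0526, edgeR).

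The last step, into granular cells, divided the members further. Skint2 rose, Skint9, Skint4, Skint5 and Skint6 fell, and Skint3, Skint10 and Skint11 depended on how libraries were scaled and on the layer thresholds. By edgeR with TMM scaling 1 of 10 members was called higher and 4 lower in granular than in upper spinous cells, against 25.4% higher and 25.4% lower of all genes, 50.8% in either direction. The median log2 fold change was −0.05 over the members and −0.10 over all genes. Skint2 averaged 9.66 ± 3.20 CPM in granular cells and 2.94 ± 1.99 in upper spinous cells (SD, n = 3), a log2 fold change of 2.26 ± 0.32 (SE, adjusted p = 3.82e-06, edgeR). With thinned cells it did not pass the count filter, and no other member was called higher. Skint9 averaged 55.3 ± 7.6 CPM in granular cells and 267 ± 17 in upper spinous cells, and had a log2 fold change of −1.68 ± 0.12 (SE, adjusted p = 2.29e-11, edgeR). Skint4 had −1.66 ± 0.19, Skint5 had −0.86 ± 0.12 and Skint6 had −0.42 ± 0.14 (SE). Skint6 was at an adjusted p of 0.0153, and at 0.121 without replicate 2, 0.0949 with RLE scaling, 0.131 with DESeq2 and 0.21 with halved layer thresholds (edgeR unless named). Skint1 had 0.20 ± 0.23 (adjusted p = 0.504, edgeR), a sign that turned without replicate 2 (−0.08), with doubled layer thresholds (−0.10) and with total UMIs (−0.42).

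Skint3, Skint10 and Skint11 had log2 values of 0.22 ± 0.10 (adjusted p = 0.0705), −0.12 ± 0.11 (0.364) and 0.02 ± 0.11 (0.918) at this step with TMM scaling in edgeR. As a share of all UMIs the 3 genes were nevertheless lower in granular than in upper spinous cells in each library, and with scaling to total UMIs all 3 were called lower, at −0.38, −0.73 and −0.59, which brought the members called lower to 7. TMM factors were 0.581 to 0.633 in granular and 0.917 to 0.937 in upper spinous profiles. Scaling to total UMIs moved the median of all genes to −0.70 at this step, −0.25 between the spinous groups and −0.27 between lower spinous and transitional cells. Relative to that median Skint3 stood above it and Skint10 and Skint11 near it. With RLE scaling Skint3 was called higher (0.36, adjusted p = 0.00412, edgeR), and DESeq2 gave 0.36 with an adjusted p of 0.0143. With doubled layer thresholds Skint10 was called lower (−0.45, adjusted p = 0.00108, edgeR), and with halved thresholds Skint3 was called higher (0.58, adjusted p = 0.000307, edgeR). Of all genes called at this step, 50.0% were higher in granular cells with TMM scaling, 21% with total UMIs and 60.4% in DESeq2. Between upper and lower spinous cells the share was 49.0% with TMM scaling and 37.1% with total UMIs, and between lower spinous and transitional cells it was 56.0% with TMM scaling, 42.1% with RLE, 40.7% in DESeq2 and 18.9% with total UMIs.

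**Figure D3:**
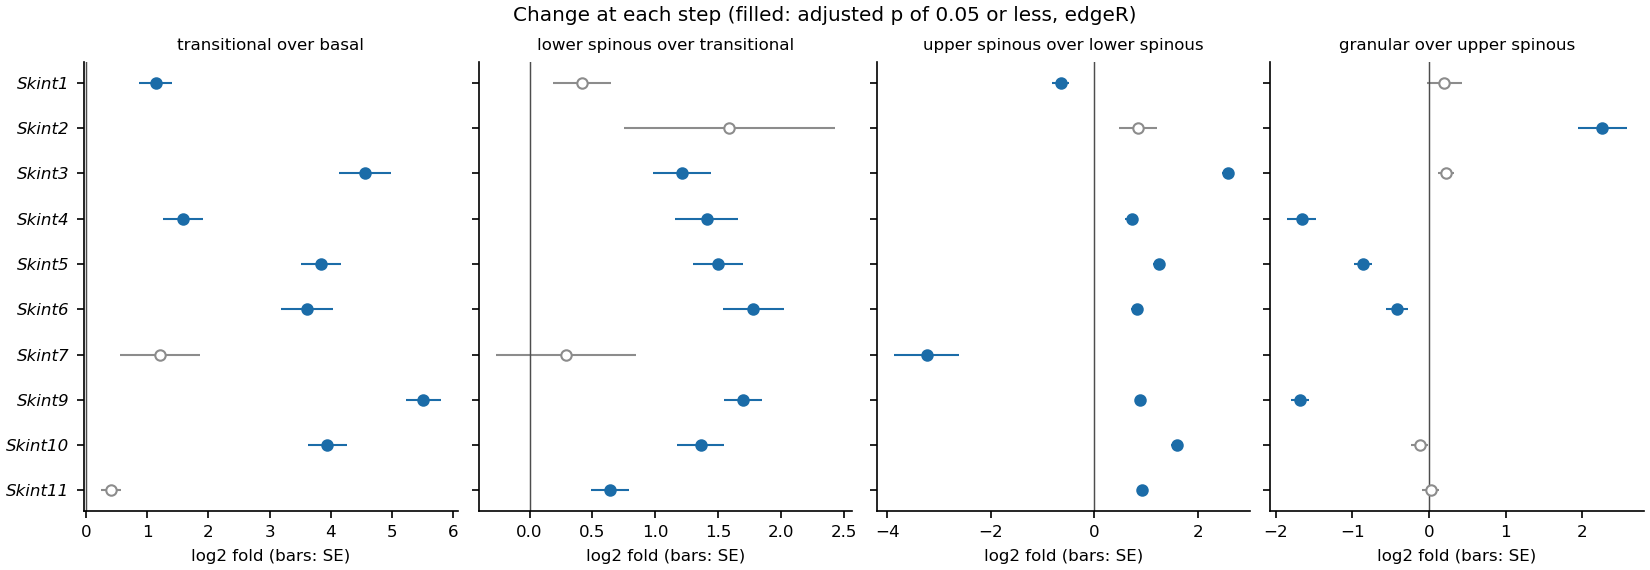
Log2 fold change of each Skint gene at the 4 steps between neighbouring layers (horizontal axis; bars are SE; n = 3 libraries per layer; filled points were called by edgeR at an adjusted p of 0.05). Points right of 0 are higher in the layer named first. Skint2 in transitional over basal cells and Skint7 in granular over upper spinous cells are not drawn because neither layer had more than 3 UMIs. In the granular panel the open points of Skint1, Skint3 and Skint11 turn below 0 when libraries are scaled to total UMIs.

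From end to end, granular cells were set against basal cells, a comparison added after the data were seen. By edgeR 9 of 10 members were called higher in granular cells and 0 lower, against 37.3% and 45.5% of all genes (82.8% in either direction), and the median log2 fold change was 5.76 over the members and −0.26 over all genes. Skint3 averaged 122 ± 5 CPM in granular cells and 0.613 ± 0.290 in basal cells (SD, n = 3), a log2 fold change of 8.57 ± 0.19 (SE, adjusted p = 9.79e-22, edgeR). Skint10, Skint9, Skint6 and Skint5 had 6.76 ± 0.18, 6.41 ± 0.21, 5.80 ± 0.23 and 5.73 ± 0.20 (SE). These 5 folds are set against 14 to 39 UMIs per gene in all basal cells; the part of stray RNA in those UMIs was not tested. Skint2 was at least 74.0-fold higher in granular cells by CPM pooled over libraries, without TMM scaling, from 89 UMIs against 0. The bound was taken at 3 UMIs over all basal cells. Skint4 had 2.06 ± 0.25, Skint11 had 1.99 ± 0.11 and Skint1 had 1.11 ± 0.22 (SE). With thinned cells neither Skint4 (0.54, adjusted p = 0.476) nor Skint1 (0.61, adjusted p = 0.293) was called by edgeR. Skint1 also depended on the scaling: its levels were 12.1 ± 2.2 CPM in granular cells and 12.2 ± 3.3 in basal cells, and with total UMIs the log2 value was 0.01 (adjusted p = 0.967, edgeR), where the median of all genes was −1.35 and 25.3% of the genes called were higher, against 45% with TMM scaling. Skint7 was not called (2 UMIs in granular and 31 in basal cells, adjusted p = 0.128, edgeR); with scaling to total UMIs it was called lower (adjusted p = 0.00611, edgeR).

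Finer bins show where within these layers the members turn. Spinous cells were binned by their share of F3, Mboat2, Dsc1 and Kctd12, and the family sum averaged 437 ± 12 CPM below 0.05%, 740.2 ± 45.8 from 0.05% to 0.1%, 855 ± 26 from 0.1% to 0.2% and 1050.0 ± 75.0 at 0.2% or more (SD, n = 3 libraries). The bins behaved differently by member. Skint9 was already at 251 in the second bin and at 279 in the last. Skint3 averaged 22.1, 76.3, 127.5 and 201 over the 4 bins, and Skint10 averaged 50.7, 103, 134 and 183. Skint4 was at 39.6 in the first bin and between 63.6 and 70.6 in the others, and Skint1 was at 30.8 in the first and between 15.1 and 19.8 in the others.

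Granular cells were binned by their share of Lor. The family sum averaged 814 ± 49 CPM in cells with 1% to 3%, 585 ± 143 with 3% to 6% and 172 ± 37 with 6% or more (SD, n = 3 libraries). Skint9 averaged 130, 70.3 and 11.8 CPM over these bins, Skint3 averaged 197, 159 and 58.0, and Skint11 averaged 128, 91.8 and 24.5. In granular cells with the least Lor, Skint3, Skint10 (175) and Skint11 had means above their upper spinous means of 159, 154 and 103. Library values overlapped between these groups for Skint3 and Skint10 and not for Skint11. The last spinous bin had higher means than these granular cells for Skint3 (201) and Skint10 (183) and a lower mean for Skint11 (115), with overlapping values for each. Skint4 at 33.2 and Skint9 at 130 were below their upper spinous means of 63.7 and 267. Over the Lor bins Skint2 went the other way to the family sum, with means of 2.95, 8.58 and 14.1 CPM from 7, 24 and 58 UMIs. Its library values overlapped between neighbouring bins and not between the first and the last. Lor and the Lce genes, which encode cornified envelope proteins, took 1.89% to 2.49% of UMIs in the first bin and 18.7% to 20.9% in the last, and their part in these levels was not tested. The first bin held 9 cells in replicate 1. Split by Lce genes instead, granular cells with 0.1% or more of their UMIs from them had a family sum of 253 ± 14 and those with less had 638 ± 50 (SD, n = 3 libraries).

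**Figure D4:**
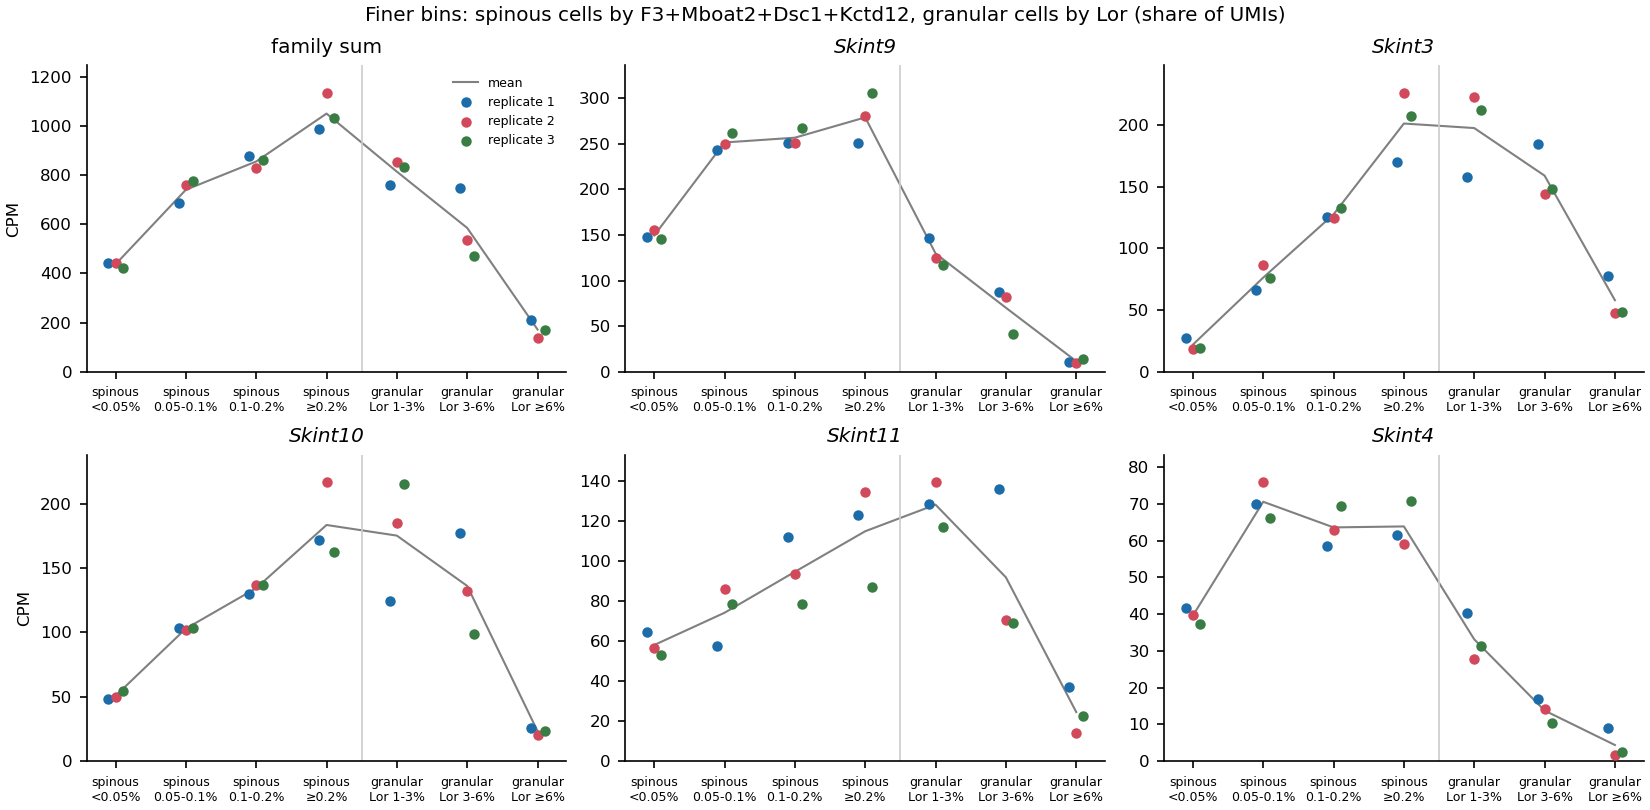
Level in CPM (vertical axis) of the family sum and of Skint9, Skint3, Skint10, Skint11 and Skint4 in spinous cells binned by the share of F3, Mboat2, Dsc1 and Kctd12, and in granular cells binned by the share of Lor. Points are libraries and the line joins their means. The family sum is highest in the last spinous bin at 1050.0 and lowest in granular cells with 6% or more Lor at 172.

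In basal cells the level came mostly from Skint11, Skint1 and Skint4. The 461 cells there with at least 2 UMIs, and 0.02% of all their UMIs, from the cell cycle genes Mki67, Top2a, Cdk1, Birc5 and Pbk had a family sum of 37.6 ± 6.3 CPM, and the other 1926 basal cells had 72.0 ± 4.5 (SD, n = 3 libraries). Skint11 had 13.9 to 22.1 in the cycling and 36.3 to 46.0 in the other basal cells, Skint1 averaged 6.86 and 14.0, and the library values of these genes did not overlap. Skint4 averaged 7.67 in the cycling and 6.76 in the other basal cells, with overlapping values. The remaining members averaged between 0 and 1.75 CPM in all basal cells. In 66 cells marked by Langerhans or T cell genes the family had 25 UMIs in 355563, with 11 from Skint3, 6 from Skint9 and 0 from Skint11, which allows up to 8.44 CPM of Skint11. Of the 25, 23 came from the 36 marked cells of replicate 2, where Lor and the Lce genes took 0.772% of UMIs, against 0.0186% in replicate 3. The marked cells of that library thus also held keratinocyte transcripts, and the comparison rests on it. Whether the few basal UMIs of Skint3, Skint5, Skint6, Skint7, Skint9 and Skint10 came from the cells' own RNA was not tested. Skint11 was above its limit in basal cells of each library. Langerhans genes summed to 15.0 to 30.4 CPM in basal, 13.9 to 17.4 in upper spinous and 4.75 to 119 in granular cells, and T cell genes to at most 4.95 in each layer.

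Seen cell by cell, most spinous cells carried several Skint transcripts. In upper spinous cells the median was 7, 6 and 6 members per cell in replicates 1 to 3, and 83.4% to 89.2% of cells had 4 or more. The median was 0 in basal cells, 1 in transitional, 3 to 4 in lower spinous and 3 to 4 in granular cells, and no cell had all 10. Because deeper cells show more genes, each cell was also thinned to 2000 UMIs, which left out 148 basal, 18 transitional, 25 lower spinous, 13 upper spinous, 13 granular and 4 immune-marked cells with fewer. A UMI of any member was then present in 12.8% of basal cells (exact 95% interval 11.5% to 14.3%), 25.8% of transitional, 55.6% of lower spinous, 83.2% of upper spinous (79.7% to 86.3%) and 53.2% of granular cells. Without thinning the shares were 39.0%, 70.9%, 91.9%, 98.5% and 86.6%, at median depths of 8354, 10705.5, 14251.5, 18555 and 19882 UMIs. In the immune-marked cells, at a median of 4719.5 UMIs, the thinned share was 4.84% (3 of 62 cells, interval 1.01% to 13.5%), and the unthinned share was 12.1%. Skint9 alone was seen in 0.223% of thinned basal cells, 8.43% of transitional, 27.4% of lower spinous, 44.5% of upper spinous and 9.95% of granular cells. Skint11 was seen in 7.41% of basal, 5.62% of transitional, 10.8% of lower spinous, 17.6% of upper spinous and 13.3% of granular cells, a much flatter course.

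**Figure D5:**
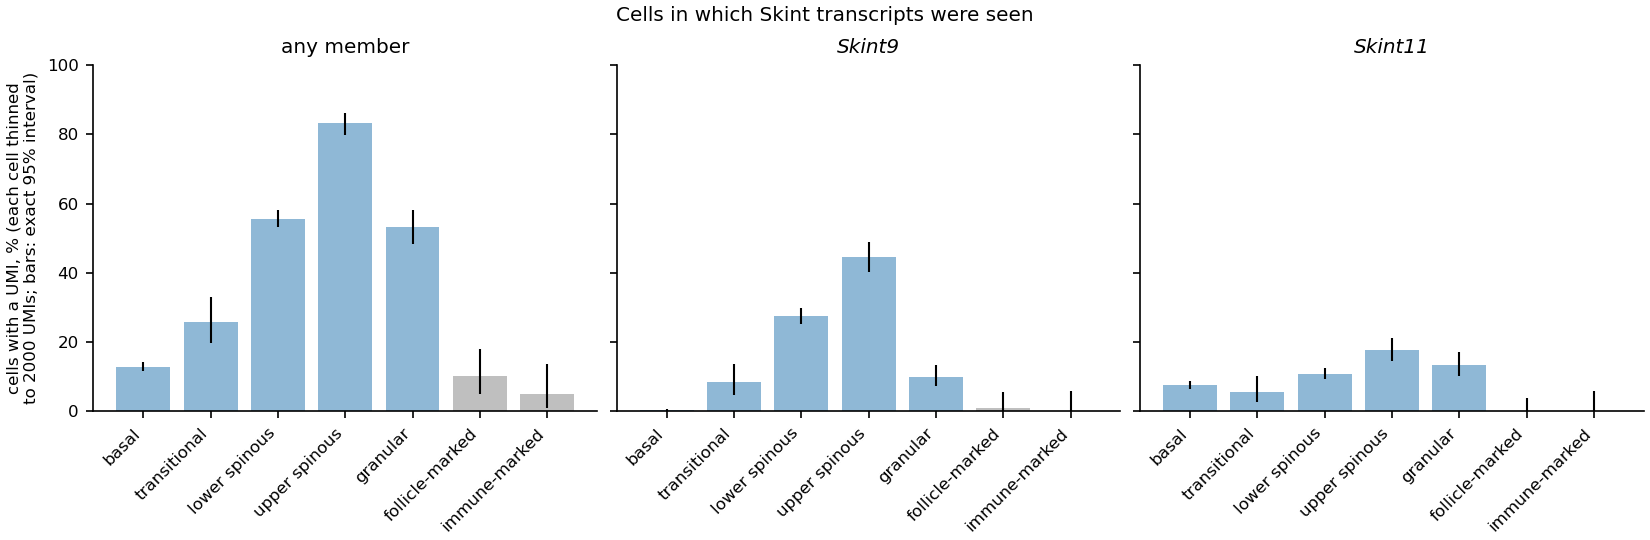
Share of cells with at least 1 UMI of any Skint gene, of Skint9 and of Skint11 (vertical axis, percent), after each cell was thinned to 2000 UMIs. Bars are the 5 layers and, in grey, follicle-marked and immune-marked cells; error bars are exact 95% intervals, which cover counting error only. Any member is seen in 83.2% of upper spinous and 12.8% of basal cells.

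Cells marked by follicle genes had a family level near that of basal cells, with another make-up. The 102 cells marked by the follicle genes Cd34, Lgr5, Lhx2 and Sox9 had a family sum of 55.7 ± 11 CPM, and the 43 cells marked by Krt79, a gene of the upper follicle, had 126 ± 54 (SD, n = 3 libraries). In the follicle-marked cells Skint4 had 33.4, 26.6 and 16.1 CPM in replicates 1 to 3, each above its highest basal value of 9.60. Skint11 had 0, 6.65 and 4.01, each below its lowest basal value of 30.5. These values rest on 17 UMIs of Skint4 and 2 of Skint11, and marked cells were not taken out of the basal group. Leaving out the immune-, follicle- and Krt79-marked cells changed no member's call at any step.

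The family's course was set beside other genes that are known to act between keratinocytes and T cells. Of 24 such genes, 17 were tested, and they changed in both directions at each step. By edgeR 4 were higher and 4 lower in transitional than in basal cells, 4 and 3 in lower spinous than in transitional, 7 and 3 in upper than in lower spinous, and 6 and 6 in granular than in upper spinous cells. The shares of all genes called higher and lower were 12.3% and 12.3%, 13.0% and 10.2%, 29.5% and 30.7%, and 25.4% and 25.4% at these steps. The 17 genes' median log2 fold changes at these steps were −0.26, 0.30, 0.38 and 0.67, beside −0.04, 0.02, −0.06 and −0.10 over all genes. Nectin2, an adhesion ligand, had 117 ± 8 CPM in upper spinous cells and 51.1 ± 7.4 in lower spinous cells (log2 1.39 ± 0.12 SE, adjusted p = 4.95e-10, edgeR) and a fall in granular cells (−0.88 ± 0.14). Plxnb2, the plexin that binds CD100 on epidermal T cells, and Cdh1, which encodes E-cadherin, rose between the spinous groups by 1.02 ± 0.10 and 0.75 ± 0.08 on the log2 scale (SE). Cdh1 then fell in granular cells (−1.33 ± 0.10 SE), with 70.7 ± 1.2 CPM there and 267 ± 36 in upper spinous cells. Plxnb2 averaged 107 ± 12 CPM in granular and 94.5 ± 5.9 in upper spinous cells (SD, n = 3). H60c, which encodes an NKG2D ligand of mouse skin, had 7.02 ± 0.75 CPM in granular cells and 32.3 ± 9.6 in upper spinous cells (log2 −1.61 ± 0.19, adjusted p = 2.03e-07, edgeR). Ccl27a, a skin chemokine, fell at each of the first 3 steps, with 243 ± 112 CPM in basal, 82.3 ± 77.0 in transitional, 14.3 ± 5.5 in lower spinous and 2.38 ± 1.21 in upper spinous cells (SD, n = 3). Il18, an alarm cytokine, rose in granular cells, at 607 ± 33 CPM against 1.64 ± 1.39 in upper spinous cells (log2 8.98 ± 0.19 SE). Of 18 butyrophilin and B7 genes, the nearest relatives by protein family, only Vsir and Cd276 passed the count filter. Vsir averaged 1.43 ± 1.31 CPM in transitional and 10.3 ± 0.9 in basal cells (log2 −2.58 ± 0.58 SE, adjusted p = 0.00174, and 0.0501 without replicate 3, edgeR). Cd276 averaged 0.149 ± 0.170 CPM in lower spinous and 5.29 ± 1.97 in transitional cells, from 4 and 11 UMIs, and was called lower in lower spinous cells (adjusted p = 0.000286, and 0.419 with doubled layer thresholds, edgeR).

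Among 7156 genes with a mean of at least 10 CPM, the 5 whose log2 levels followed the family sum most closely over the 15 profiles were Mfsd6 (Pearson r 0.991), Rnase1 (0.990), Homer2 (0.989), Grhl1 (0.988) and Rgs20 (0.988). Grhl1, a transcription factor of differentiating epidermis, averaged 17.4 CPM in basal, 68.1 in transitional, 127 in lower spinous, 335 in upper spinous and 174 in granular cells. Homer2 averaged 4.66, 56.7, 159, 466 and 191 in the same layers. The profiles share libraries and sequencing depth, and the values describe likeness of course only.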

How the data were processed

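The libraries were made for 5′ ends and short cDNA fragments were added back, per the labels' protocols. The authors used Cell Ranger 3.1.0 and build mm10, per the submitters' processing notes; the annotation version and the strand setting are not given in the sources used here. The deposited values are UMI counts without normalization. A barcode was kept if it had 500 genes or more and no more than 10% of UMIs from mt- genes, which left 5340 of 6078 barcodes (68583868 UMIs before this step). Scrublet (scanpy 1.11.5) marked 30 doublets (0.562%), which were kept, and left out in an alternative.

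Counts were summed per library and layer and fitted in 1 model with edgeR 4.0.16 (R 4.3.3): TMM, its low-count filter, quasi-likelihood test, library as block, Benjamini-Hochberg over all genes. In the main fit each library gives every layer, so the block pairs profiles by construction. Deviations of paired profiles correlated with r from 0.0613 to 0.209 across genes. With doubled layer thresholds replicate 2 gives no transitional profile. The fit was also run on simulated counts with no library effect and with changed genes in granular profiles only. Because few genes changed there, that run cannot test the scaling of these data. The genes that define the layers stayed in the fit and in the adjustment of p-values. They are left out of the counts, shares and medians of all genes tested. Intervals cover counting error only. Alternatives were DESeq2 1.42.0, RLE or total scaling, no count filter, no block, stricter cell filters, layer thresholds doubled or halved, cells thinned to 2000 UMIs, marked cells or doublets left out, and each library left out.

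Members, gene lists and layer rules were chosen with earlier results of these data known. The comparison of granular with basal cells, the spinous bins, the Lce split and the shared promoter runs were added after seeing the data. All members are named; of the gene lists, at most 3 called genes per list, step and direction in order of adjusted p could be named, and of those not all are described. Cells marked by raised stress keratins were sought and none was found. Coordinates are from GENCODE M21 (GRCm38); promoters are from RefSeq (GRCm38.p6), where all 10 members matched. Coding identity was computed with Biopython 1.88. Protein sequences are not used here.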

Additional observations from a re-analysis of the deposited data

How the results depend on the processing

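Over 15 alternatives, 734 member fold changes had an SE. Of these, 681 kept their direction and side of the threshold, 23 lost and 11 gained a call, and 19 turned sign. Left out of the 734 is a value without an SE, Skint2 at transitional over basal, at −0.26 and not called. In the main fit, from 2 and 0 UMIs, it was 4.57 and called, so it also turned sign and lost its call. None of the 19 was called in both settings. At granular over upper spinous the turned values were, with total UMI scaling, −0.59 (Skint11), −0.42 (Skint1), −0.38 (Skint3) and −0.32 (Skint7); with doubled thresholds, −0.32 (Skint11), −0.10 (Skint1) and −0.11 (Skint3); with halved thresholds, 0.17 (Skint10) and −1.19 (Skint7); with RLE, 0.01 (Skint10); without a count filter, −0.05 (Skint11); and, over fits that each left out 1 replicate, from −0.08 to 0.11 (Skint11, lowest without replicate 3), −0.08 to 0.38 (Skint1, lowest without replicate 2) and −3.83 to 0.93 (Skint7, lowest without replicate 2). Cells thinned to 2000 UMIs gave −3.83 (Skint10), −2.72 (Skint6) and −0.57 (Skint11) at transitional over basal, with SEs of 2.76, 3.12 and 0.45, and −0.09 (Skint1) at lower spinous over transitional. Skint10 and Skint6 had 0 UMIs in thinned transitional cells. At mt- shares up to 5%, Skint7 was at −0.40 for lower spinous over transitional. Of counts, 204 of 225 stayed within 1.5 times. Thinned cells gave 763, 731, 2832, 2256 and 4631 genes called over the 4 steps and granular over basal, with fewer genes tested (6178); members called higher were 3 at transitional over basal and 0 at granular over upper spinous, and 1 was called lower between the spinous groups. Doubled thresholds gave 1167 and 1258 genes at the first 2 steps, 5 members higher at the first and 0 lower between the spinous groups. Doubled thresholds gave no value for Skint7, which was called lower between the spinous groups in all 13 alternatives that gave one. At granular over upper spinous, 2 members were called higher with DESeq2, RLE or halved thresholds, and 7 lower with total UMIs, which also called 1 member lower at granular over basal. Leaving out each replicate gave 1277 to 2134 genes and 5 to 7 members higher at transitional over basal, 1466 to 1846 genes at lower spinous over transitional, and 1 to 2 members lower between the spinous groups; the lowest gene counts are those without replicate 3. Without the replicate block, 2316 genes were called at transitional over basal and 7 members were higher (Skint2 lost its call, adjusted p = 0.0649, edgeR); no other member's call changed. Of 514 values of the named list genes, 50 lost their call and 0 turned sign. The cause was not tested. Skint2 and Skint7 did not pass the count filter with thinned cells and have no value there, and Skint7 has none with doubled thresholds. The transitional group had 2368442 UMIs in all.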
